A study of Mus musculus with 4 samples.

Results

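The mitochondrial ribosomal protein genes were taken as every row of the deposited gene table whose symbol begins with Mrpl or Mrps followed by a digit, leaving out pseudogene names, which gave 77 members of 34745 rows. The 4 RNA-seq libraries, 1 for each group, were made from splenic CD4+ T cells of C57BL/6 mice of wild-type genotype. Th17 and Treg cells were taken after 3 days of culture under their differentiation conditions, with cytokines that the labels leave unnamed. Th0 cells had received αCD3/CD28 stimulation over 3 days, and naive cells had been selected from the spleen and not cultured. The labels give neither the age or number of the mice nor any pooling. With 1 library per group, no difference below has a replicate check and no test between conditions was possible.

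Mitochondrial ribosomes translate the few mRNAs of the mitochondrial genome, which encode core subunits of the respiratory chain and of ATP synthase. Their rRNAs come from mitochondrial DNA, whereas all of their proteins are encoded in the nucleus, made in the cytosol and imported. Many of these proteins have bacterial homologs, and others arose in the mitochondrial lineage. Stimulated T cells grow and build new mitochondrial mass before they divide, and mitochondrial translation is known to be needed for T cell expansion and effector function.

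Of the 77 members, 50 encode proteins of the large subunit and 26 proteins of the small subunit. Mrps36 is named as a ribosomal protein but encodes a component of the 2-oxoglutarate dehydrogenase complex, and Mrps18a and Mrps30 are named as small-subunit genes but encode large-subunit proteins. By their standard protein names, 30 of the 50 large-subunit proteins and 16 of the 26 small-subunit proteins were classed as having bacterial homologs. The names class the products of Mrps18a (mL66) and Mrps18b (mS40) as mitochondria-specific, although they belong to the bS18 family. The members lie on 17 chromosomes, with 10 on chromosome 11 and 8 on chromosome 17, and all 77 overlapped the coordinates of their GENCODE vM21 entry on GRCm38. In that annotation 32 members share exon bases with another gene, 27 of them with a gene on the opposite strand, and 16 have a near-identical copy elsewhere in the genome, so that part of their reads could belong to another gene.

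The libraries held 12414372 counts in Th17, 10256627 in Treg, 10272122 in Th0 and 11901949 in naive cells. Levels are given as CPM, counts brought to a common library size with TMM (trimmed mean of M values, factors of 1.057, 1.081, 0.8505 and 1.029 in the same order). T cell genes were high throughout, as 8 T cell markers summed to 3324 CPM in Th17, 3611 in Treg, 4044 in Th0 and 3232 in naive cells. The naive library stood apart by genes of other cell types. All 12 B cell markers were highest there, summing to 226.3 CPM in Th17, 108.5 in Treg, 464.6 in Th0 and 3946 in naive cells, as were all 10 macrophage and monocyte markers, summing to 35.74, 51.13, 32.39 and 4573 CPM. Neutrophil markers (8 genes, 7 highest in naive) summed to 10.59, 5.41, 1.832 and 1449 CPM. Dendritic cell markers (8 genes, 7 highest in naive) summed to 37.26, 45.54, 13.97 and 348.2 CPM. CD8 T and NK cell markers (7 genes, 4 highest in naive) summed to 199.3, 258.4, 119.2 and 111.8 CPM. For this last list the sum was lowest in naive although most markers were highest there. The 0 values among defining markers were Siglech and Cd209a in the 3 cultured libraries with Xcr1 in Treg and Clec9a in Th0 (dendritic cells), Elane in the 3 cultured libraries with Camp in Th17 and Treg, Ltf in Th17, Mpo in Treg and S100a8 in Th0 (neutrophils), and Ncr1 in Th17 and Th0 with Klrb1c in Th0 (NK cells). No marker of these types was at 0 in naive cells. Foxp3, which encodes the defining factor of regulatory T cells, stood at 51.49 CPM in Treg cells, against 11.28 in Th17, 1.374 in Th0 and 129.0 in naive cells, whereas Il17a had 90.38 CPM in Th17, 14.7 in Treg, no count in Th0 and 0.245 CPM in naive cells. With Il2ra and Ikzf2, the 3 Treg markers summed to 1609 CPM in Th17, 1391 in Treg, 214.3 in Th0 and 303.8 in naive. Of these 3 markers, 2 were highest in naive cells. The part that these other cells play in any ratio over naive cells was not tested, and in bulk RNA fewer cells of a type and less RNA per cell cannot be told apart.

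Over the whole set, mitochondrial ribosomal protein transcripts were most abundant in Th0 cells and least abundant in naive cells. The 77 members summed to 2355 CPM in Th17, 2336 in Treg, 3059 in Th0 and 1896 in naive cells, which was 0.2489%, 0.2526%, 0.2601% and 0.195% of all counts. Th17 and Treg cells lay close together, between the Th0 and the naive library, and by share of all counts Th0 stood only slightly above them. The median member had 24.54, 24.98, 30.22 and 20.5 CPM in the same order. Single members ranged widely around that median, with 2.896 to 92.06 CPM in Th17, 2.345 to 89.36 in Treg, 0.8013 to 266.0 in Th0 and 2.777 to 113.2 in naive cells. The median member had 322, 277, 264 and 251 reads, and all 77 members had at least 10 counts in every library except Mrpl53, with 7 counts in Th0.

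**Figure D1:**
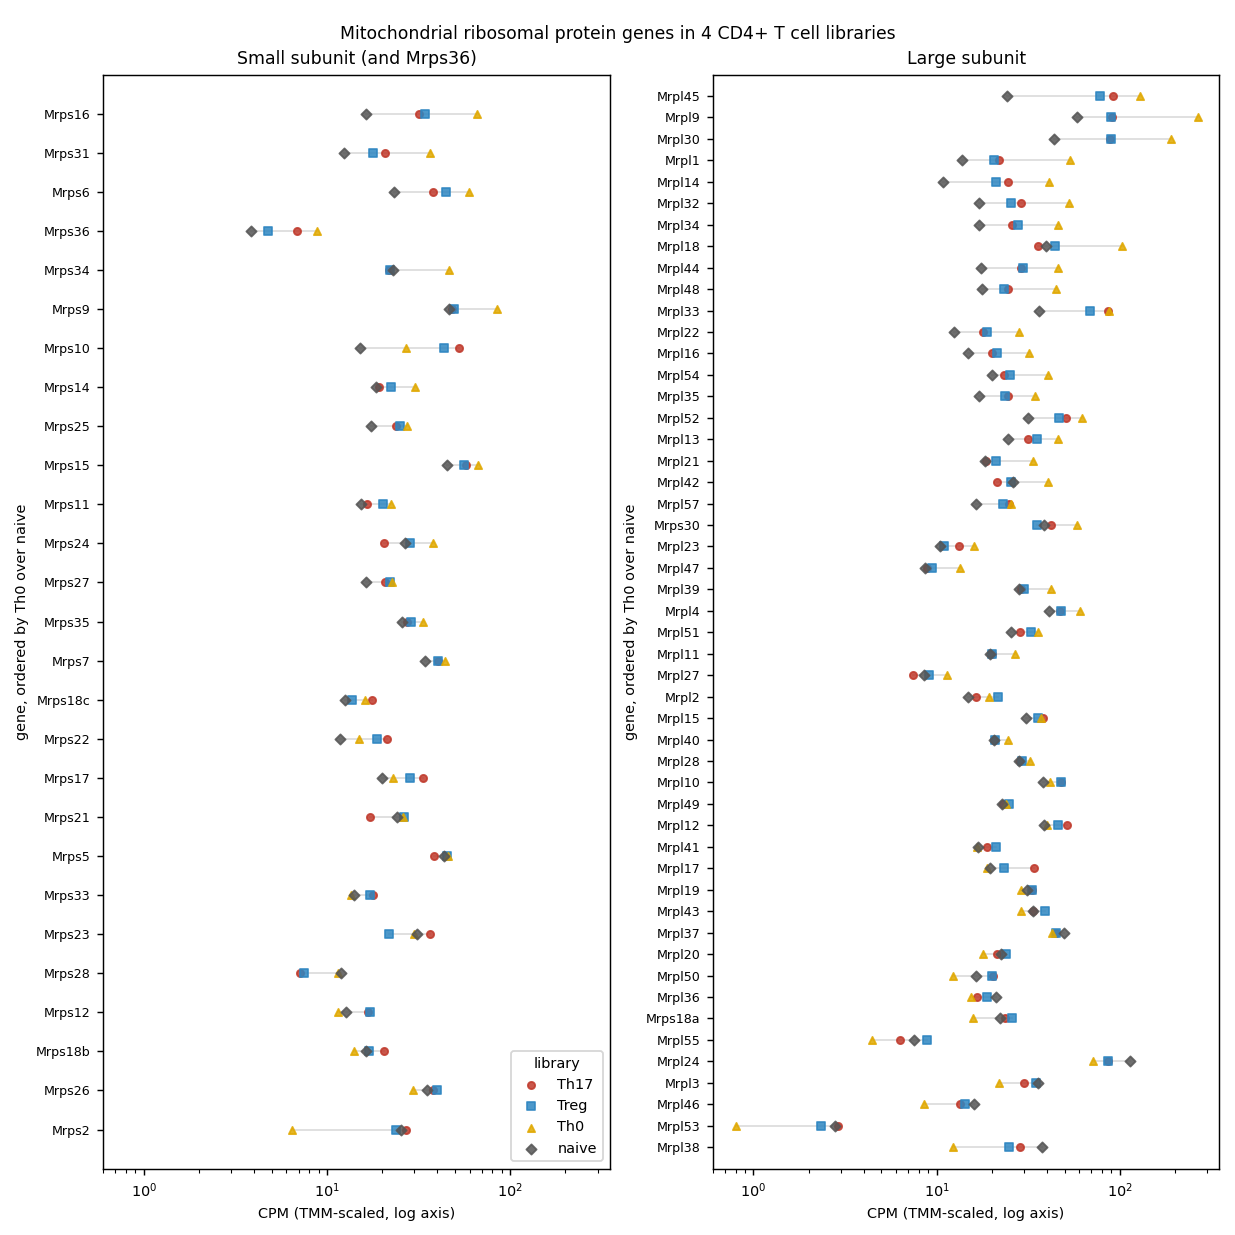
Level of each mitochondrial ribosomal protein gene (CPM after TMM scaling, log axis) in the Th17, Treg, Th0 and naive libraries, 1 point per library and gene. The Th0 point is the highest for 45 of the 77 members and the naive point is the lowest for 47. These counts were made over the members only.

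On the TMM scale the Th0 library was at one end of the order for most members, more often the high end. Th0 held the highest level of 45 members and the lowest of 20, so that for 65 of 77 it was at one end. The naive library held the highest level of 7 members and the lowest of 47, Th17 the highest of 15 and the lowest of 8, and Treg the highest of 10 and the lowest of 2. For 44 members both Th17 and Treg lay between Th0 and naive cells. In 38 members Th0 was highest and naive lowest, and in 6 Th0 was lowest and naive highest. These orders were counted over the members only, so whether genes at large differ from them was not tested. The spread was small for many members, since 27 stayed within 1.5-fold over all 4 libraries and the median ratio of highest to lowest level was 1.646.

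Compared per length, as FPKM (fragments per unit of gene length and of library size) deposited by the authors, the most abundant members were a mixed set from both subunits. Mrps16, which encodes a small-subunit protein with a bacterial homolog, led with 59.63 FPKM in Th17, 65.11 in Treg, 98.9 in Th0 and 29.69 in naive cells. Mrpl34, Mrpl42, Mrpl32, Mrps6 and Mrpl9 followed, with means over the 4 libraries between 38.17 and 44.05 FPKM. The lowest means belonged to Mrpl53 (1.625 FPKM), Mrps17 (1.919), Mrpl47 (1.971), Mrps36 (2.263), Mrpl55 (2.480) and Mrpl15 (2.804). The gene length behind these FPKM values was 566 nt for Mrps16, 13836 nt for Mrps17 and 12658 nt for Mrpl15, and a length that includes bases rarely transcribed lowers a gene's FPKM. The median member had 8.656 FPKM in Th17, 8.596 in Treg, 9.1 in Th0 and 7.565 in naive cells, against 5.688, 6.092, 5.389 and 5.507 FPKM for the median of all genes with at least 10 counts. Above that median lay 56, 52, 50 and 49 of the 77 members.

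The comparison of Th0 with naive cells, which addresses stimulation without added lineage conditions, gave the widest differences. A member was called higher or lower when its CPM plus 1 differed at least 2-fold, and all 77 members had the 10 counts in at least 1 library that entry required. Of them 17 were higher in Th0 (22.1%), against 18.5% of the 13995 genes tested, and 3 were lower (3.9%), against 27.2%. The median log2 ratio of the members was 0.44, against -0.13 for all genes tested, and 62 of 77 lay above the all-gene median, which splits all genes 50% to 50%. The members were also less spread than genes at large, with quartiles of -0.05 and 0.97 against -1.10 and 0.73. When libraries were scaled by their totals instead, the members' median was 0.18 and that of all genes -0.38, which moved the all-gene median by -0.24. Among genes with a mean of at least 10 CPM, a filter chosen after the data were seen, 16 of 72 members were higher and 2 lower, against 21.2% and 19.1% of all genes. The share of members called higher was therefore near that of all genes, and the share called lower was below it. Under this filter the median log2 ratio was 0.48 for the members and 0.12 for all genes. The negative all-gene median above thus held only with weakly expressed genes included.

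**Figure D2:**
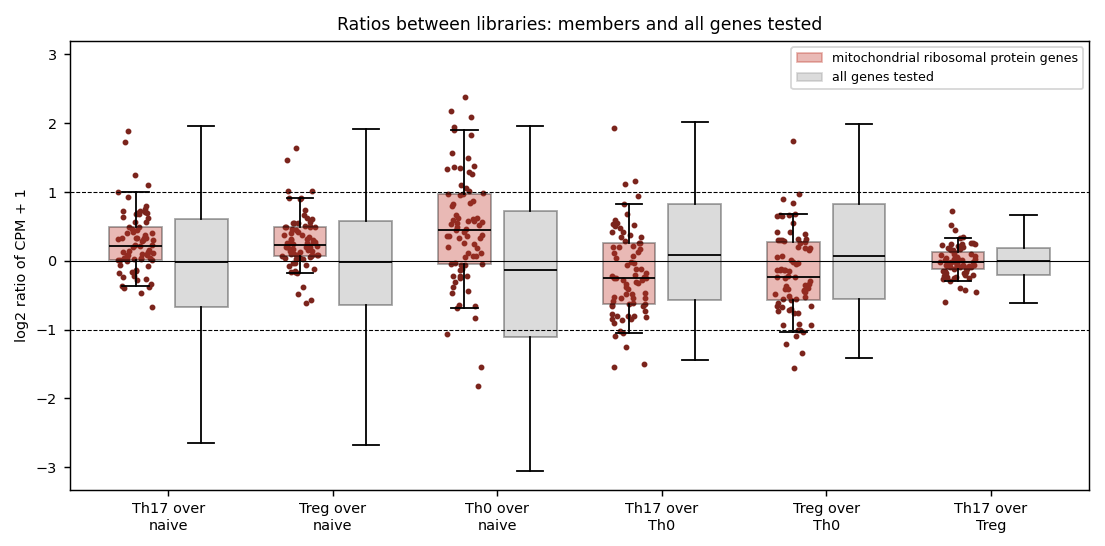
Log2 ratio of CPM + 1 for the mitochondrial ribosomal protein genes (red boxes, 1 point per member) and for all genes tested (grey boxes) in each of 6 comparisons; boxes span the quartiles around the median, whiskers run from the 5th to the 95th percentile and dashed lines mark 2-fold. The members' median is 0.44 for Th0 over naive cells and -0.02 for Th17 over Treg cells.

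Mrpl45 differed most. It encodes mL45, a protein at the polypeptide exit of the large subunit that contacts the inner membrane, and it lies at chr11:97315716-97329920 (GRCm38). It had 92.06 CPM in Th17, 77.64 in Treg, 129.4 in Th0 and 24.09 in naive cells, so every cultured library lay above the naive one. The Th0 level was 5.37-fold the naive level (log2 ratio 2.38, 95% counting interval 2.24 to 2.61). This interval, like all those below, covers counting error only and sets the reads of one library against those of another, with no pseudocount. Neither an overlapping gene nor a near-identical copy was found for Mrpl45.

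Mrpl9 (chr3:94443318-94451130), which encodes the large-subunit protein bL9m, had 90.46 CPM in Th17, 89.36 in Treg, 266.0 in Th0 and 58.23 in naive cells, the highest CPM of any member in any library. Here Th0 stood apart from the other 3 libraries, 4.57-fold above naive cells (log2 2.17, interval 2.07 to 2.31). Its exons overlap Oaz3 on the opposite strand. Mrpl30 (chr1:37890477-37898535), which encodes uL30m, had 88.86, 89.09, 190.2 and 43.77 CPM in Th17, Treg, Th0 and naive cells. It was 4.35-fold higher in Th0 than in naive cells, and Th17 and Treg were almost equal to each other, between the 2. Mrps16 had 31.93, 34.09, 65.82 and 16.33 CPM in the same order, a Th0 level 4.03-fold the naive one, although its near-identical copy Gm9173 could share its reads.

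The other members called higher in Th0 cells were mostly large-subunit genes. Mrpl1 encodes uL1m, the protein of the mobile L1 stalk at which spent tRNAs leave, and had 21.95 CPM in Th17, 20.65 in Treg, 53.8 in Th0 and 13.72 in naive cells. Mrpl14 encodes uL14m, on which the assembly factor MALSU1 docks in maturing human large subunits, and had 24.39, 21.19, 41.21 and 10.86 CPM. Both were raised in Th0 over naive cells, 3.92-fold and 3.79-fold. Mrpl18 encodes uL18m of the central protuberance and had 35.82, 44.28, 103.4 and 39.44 CPM. Unlike the members above, Mrpl18 was at a similar level in Th17, Treg and naive cells, and only Th0 stood out, 2.62-fold above naive cells. Its exons overlap Tcp1 on the opposite strand. Mrpl32, whose product must be cleaved by the m-AAA protease before it can be assembled, had 28.81, 25.61, 52.66 and 17.07 CPM. Mrps31, Mrpl34, Mrpl44, Mrps6, Mrpl48, Mrpl33, Mrps36, Mrpl22 and Mrpl16 completed the 17, between 2.15-fold (Mrpl16) and 2.98-fold (Mrps31). The calls for Mrpl16, Mrpl22 and Mrps36 were met under 2 of 4 scalings and that for Mrpl33 under 3, and the other 13 under all 4. Exons of Mrpl14, Mrpl44 and Mrpl48 overlap Tmem63b, Wdfy1 and Rab6a on the opposite strand. On the same strand Mrpl33 overlaps Gm43809, and Mrps6 overlaps Slc5a3 and Gm49711. Near-identical copies were found for Mrpl32 (Gm6578), Mrpl22 (Gm6997), Mrpl48 (Mrpl48-ps) and Mrps36.

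Mrps2, Mrpl38 and Mrpl53 ran against the set in Th0 cells. Mrps2 (chr2:28468066-28471178), which encodes the small-subunit protein uS2m, had 27.13 CPM in Th17, 23.9 in Treg, 6.41 in Th0 and 25.23 in naive cells. The Th0 library alone was low, with 56 reads against 309 in naive cells, a 3.94-fold lower level (log2 ratio -1.82, interval -2.41 to -1.56). Mrpl38 (chr11:116131817-116138868), which encodes mL38 of the central protuberance, had 28.65, 24.98, 12.25 and 37.65 CPM and was 3.07-fold lower in Th0 than in naive cells. Mrpl53 had 38, 26, 7 and 34 reads, equal to 2.896, 2.345, 0.8013 and 2.777 CPM, and its interval for Th0 over naive cells ran from -3.21 to -0.60 on the log2 scale. With so few reads, this interval gives only a direction between these single libraries, within counting error. Exons of Mrpl53 overlap Gm42688 on the same strand and Ccdc142os on the opposite strand. For Mrps2 and Mrpl38 no overlapping gene or near-identical copy was found. Below these 3, the lowest ratios belonged to Mrpl46 (-0.83), Mrpl3 (-0.68) and Mrpl24 (-0.65), which were not called. The exons of Mrpl46 overlap those of Mrps11, another member, on the opposite strand. The 57 members called in neither direction lay between -0.83 and 0.98. Mrpl24, which encodes uL24m near the exit tunnel, had 85.96 CPM in Th17, 86.39 in Treg, 71.54 in Th0 and 113.2 in naive cells.

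**Figure D3:**
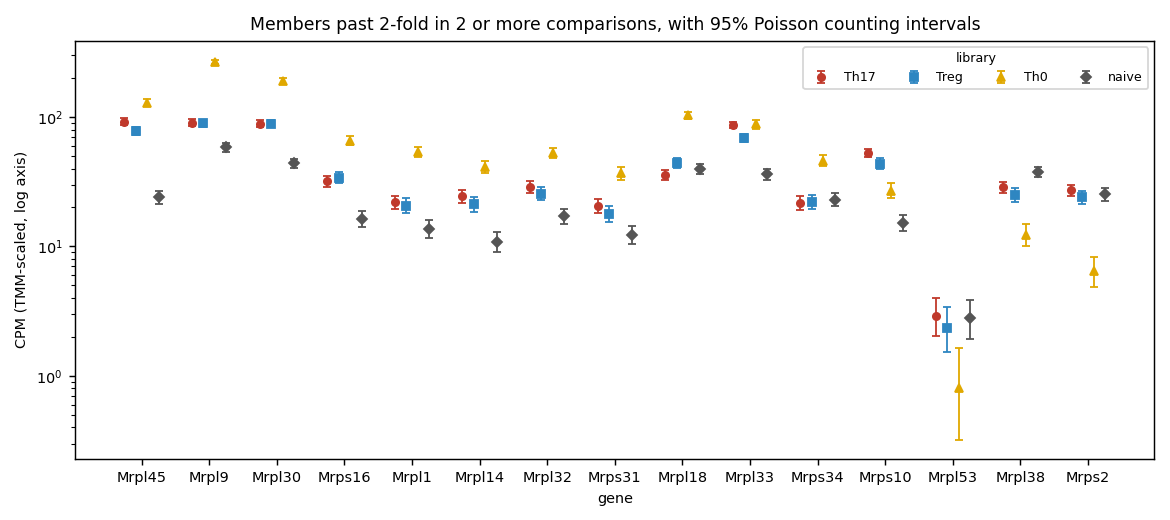
Level (CPM after TMM scaling, log axis) of the 15 members past 2-fold in at least 2 comparisons, in the Th17, Treg, Th0 and naive libraries; bars are 95% Poisson counting intervals of 1 library each. Mrpl45 to Mrps16 are highest in Th0 cells, whereas Mrpl53, Mrpl38 and Mrps2 are lowest there.

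Calls on the higher side in Th0 over naive cells made up a smaller share of the small subunit than of the large one. Of 26 small-subunit members, 3 were called higher (11.5%) and 1 lower (median log2 ratio 0.36), and of 50 large-subunit members 13 were higher (26.0%) and 2 lower (median 0.51), against 18.5% and 27.2% of all genes. Proteins classed by name as having a bacterial homolog had 12 of 46 members higher (26.1%) and 1 lower (median 0.51). Those classed as specific to mitochondria, with Mrps18a and Mrps18b among them, had 4 of 30 higher (13.3%) and 2 lower (median 0.34). The differences between these groups of members were not tested. The 3 paralogs of the bS18 family, which occupy different places in the ribosome, were called in no comparison. Mrps18a had 23.7 CPM in Th17, 25.79 in Treg, 15.8 in Th0 and 22.21 in naive cells, Mrps18b had 20.5, 16.95, 13.97 and 16.41 CPM, and Mrps18c had 17.68, 13.62, 16.14 and 12.58 CPM. Of the members whose symbol misplaces them, Mrps30, a large-subunit gene, had 42.07 CPM in Th17, 35.35 in Treg, 58.72 in Th0 and 38.46 in naive cells. Mrps36, outside the ribosome, had 6.858, 4.779, 8.814 and 3.838 CPM, and near-identical copies of it lie elsewhere in the genome.

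The sequence before the transcription start is shown for the 3 members with the largest Th0 over naive ratio and for 2 of the 3 that were lower in Th0. Mrpl38, the remaining one, had no RefSeq promoter entry. The sequences are from RefSeq (GRCm38.p6), 250 bases that end just before the annotated start, written 5′ to 3′ with matches to 4 searched motifs in capitals.
Mrpl45, chr11:97315466-97315715, plus strand: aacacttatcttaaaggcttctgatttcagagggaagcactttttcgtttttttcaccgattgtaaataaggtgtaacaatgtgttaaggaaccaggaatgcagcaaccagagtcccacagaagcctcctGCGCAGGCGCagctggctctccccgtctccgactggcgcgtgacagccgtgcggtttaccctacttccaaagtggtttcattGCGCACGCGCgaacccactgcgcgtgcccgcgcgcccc
Mrpl9, chr3:94443086-94443335, plus strand: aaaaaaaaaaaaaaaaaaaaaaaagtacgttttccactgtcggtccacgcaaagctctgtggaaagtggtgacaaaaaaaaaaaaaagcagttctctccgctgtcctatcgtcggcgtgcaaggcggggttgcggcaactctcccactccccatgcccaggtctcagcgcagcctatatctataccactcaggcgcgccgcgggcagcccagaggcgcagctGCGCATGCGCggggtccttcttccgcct
Mrpl30, chr1:37890227-37890476, plus strand: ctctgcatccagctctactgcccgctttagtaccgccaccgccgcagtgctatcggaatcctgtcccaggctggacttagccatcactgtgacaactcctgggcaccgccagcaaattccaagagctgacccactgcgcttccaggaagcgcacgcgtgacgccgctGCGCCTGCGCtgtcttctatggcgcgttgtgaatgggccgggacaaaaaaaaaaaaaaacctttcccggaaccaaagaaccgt
Mrps2, chr2:28467816-28468065, plus strand: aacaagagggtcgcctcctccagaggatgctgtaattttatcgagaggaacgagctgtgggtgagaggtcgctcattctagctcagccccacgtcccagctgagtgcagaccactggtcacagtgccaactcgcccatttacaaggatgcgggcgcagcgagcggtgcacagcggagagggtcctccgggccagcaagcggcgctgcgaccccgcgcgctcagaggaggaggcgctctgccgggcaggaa
Mrpl53, chr6:83108858-83109107, plus strand: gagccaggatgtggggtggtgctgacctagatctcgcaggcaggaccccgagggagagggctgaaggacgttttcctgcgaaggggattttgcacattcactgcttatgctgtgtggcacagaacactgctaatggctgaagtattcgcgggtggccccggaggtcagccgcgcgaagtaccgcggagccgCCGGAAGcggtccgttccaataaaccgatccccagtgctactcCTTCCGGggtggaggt
The searched motifs were GCGCA and GCGC with any base between them (bound by NRF1, a regulator of nuclear genes for mitochondria), CCGGAAG (ETS factors, which include GABP), CACGTG (the E-box bound by MYC) and AAGATGGC (YY1), each on both strands, so that a match on the other strand appears above as its reverse complement. Mrpl45 held the NRF1 motif at 120 and 38 bases before the start, Mrpl9 at 28 and Mrpl30 at 83. Mrps2 held none of the 4, and Mrpl53 held the ETS motif at 59 and 16 bases before its RefSeq start. The deposited coordinates place the starts of Mrpl9 (chr3:94443318) and Mrpl53 (chr6:83109040) further upstream than RefSeq does. The ends of these stretches therefore lie inside the genes as deposited, and for Mrpl53 that part holds both ETS matches. In the window from 250 bases before to 50 after the start, 68 of the 77 members had a RefSeq entry, and 24 of these held none of the motifs. The NRF1 motif stood in 13 of 68 (19.1%), against 5.19% of 27025 genes with an entry, the ETS motif in 25 (36.8%), against 9.93%, and the YY1 motif in 12 (17.6%), against 3.19%. The E-box stood in 5 (7.35%), against 8.09% of all genes. The 13 members with the NRF1 motif had a median Th0 over naive log2 ratio of 0.84, with a range from -0.25 to 2.38, and the 55 without it had a median of 0.38, with a range from -1.82 to 1.95. For the other motifs the median was lower with a match than without one, at 0.34 against 0.55 for ETS, -0.22 against 0.52 for the E-box and 0.40 against 0.51 for YY1. The difference between members with and without a motif was not tested, and a match to letters describes a promoter and is not a measured binding site. The list of 9 regulators, which holds a factor for each motif, had 2 genes called higher and 2 lower in Th0 over naive cells, with a median log2 ratio of -0.87. Each count was 22.2% of the list, against 18.5% (higher) and 27.2% (lower) of all genes. Nrf1 had 34.44 CPM in Th17, 33.27 in Treg, 75.09 in Th0 and 37.24 in naive cells. Gabpa, of the ETS family, had 60.05, 56.09, 156.5 and 97.92 CPM, Yy1 had 143.4, 140.9, 310.2 and 135.2 CPM, and Myc had 64.93, 54.74, 26.79 and 58.47 CPM.

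Some members share a short divergent promoter region with another gene. A protein-coding neighbour starts on the opposite strand within 1000 nt of 23 members, and 22 of these neighbours had enough counts for the comparison of Th0 with naive cells. The log2 ratios of member and neighbour had the same sign in 14 of the 22 pairs and lay less than 1 apart in 9, among them Mrps18c (0.34) with Helq (0.22) and Mrps12 (-0.13) with Sars2 (-0.18). In 13 pairs they lay 1 or more apart, with the neighbour higher in 6 and lower in 7. In Th0 over naive cells Mrpl30 had a log2 ratio of 2.10 and its neighbour Mitd1 -0.37, and Mrpl32 had 1.57 and Psma2, a proteasome subunit gene, 0.41. In other pairs the neighbour had the ratio further from equality. Mrpl51 had 0.47 and Ncapd2, a condensin gene, 3.25, Mrpl57 had 0.61 and Ska3, a kinetochore gene, 3.64, and Mrps18b had -0.22 and Ppp1r10 -2.42. The named pairs were chosen after their values were seen.

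The comparison of Th17 with naive cells gave smaller differences. Of the 77 members, 5 were higher in Th17 (6.49%), against 15.5% of 14523 genes tested, and 0 were lower, against 17.7%. The median log2 ratio was 0.22, against -0.01 for all genes, and 61 members lay above the all-gene median. The quartiles of the members, 0.02 and 0.49, were close together beside those of all genes, -0.68 and 0.61. In 39 members the counting interval lay above equality, in 8 below it and in 30 it included equality. The same interval counts were not made over all genes. With no replicates, 0 members lower is a count by size and not by a test.

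Mrpl45 was again first, 3.82-fold higher in Th17 than in naive cells (log2 1.89, interval 1.75 to 2.12). Mrps10, which encodes the small-subunit protein uS10m, had 52.66 CPM in Th17, 43.73 in Treg, 27.01 in Th0 and 15.19 in naive cells. It was 3.47-fold higher in Th17 than in naive cells, and unlike most members it was higher in Th17 and Treg than in Th0; a near-identical sequence, AC154457.3, could share its reads. Mrpl33 had 86.57, 68.62, 87.57 and 36.01 CPM and was 2.40-fold higher in Th17 than in naive cells, close to its level in Th0. Mrpl14 was 2.25-fold and Mrpl30 2.03-fold higher in Th17 than in naive cells, and the Mrpl30 call was met under 3 of 4 scalings. The lowest ratio was that of Mrps28 (log2 -0.68), with 7.087 CPM in Th17, 7.484 in Treg, 11.45 in Th0 and 11.92 in naive cells, and Mrps21 (-0.46), Mrpl24 (-0.39), Mrpl38 (-0.38), Mrps24 (-0.37) and Mrpl36 (-0.34) came next.

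In Treg over naive cells, 4 members were higher (5.19%), against 14.9% of 14350 genes tested, and 0 were lower, against 16.9%. The median log2 ratio was 0.22, against -0.02 for all genes, and 64 members lay above the all-gene median. Mrpl45 was 3.22-fold higher in Treg than in naive cells and Mrps10 2.88-fold, and both calls were met under all 4 scalings. Mrps16 was 2.09-fold and Mrpl30 2.04-fold higher, each called under 3 of 4 scalings. The ratios of Th17, Treg and Th0 over naive cells rest on the same naive library.

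Against Th0 cells, the Th17 library had lower levels of most members on the TMM scale. Of the 77 members, 3 were higher in Th17 (3.9%), against 20.1% of 13324 genes tested, and 6 were lower (7.79%), against 12.4%. The members' median log2 ratio was -0.25, against 0.09 for all genes, with scaling to library totals giving 0.06 against 0.36, so that the sign of the members' median depended on the scaling while it stayed below the all-gene median. Under library totals 5 members were higher and 2 lower, and under upper quartile scaling 4 and 3. The shares of all genes given here hold for the TMM scale and were not computed for the other scalings. On the TMM scale 26 of 77 members lay above the all-gene median. Among genes with a mean of at least 10 CPM, both TMM medians were negative, at -0.24 for the members and -0.08 for all genes. Mrpl9 was 2.94-fold, Mrpl18 2.89-fold, Mrpl1 2.45-fold, Mrpl30 2.14-fold, Mrps34 2.12-fold and Mrps16 2.06-fold lower in Th17 than in Th0 cells. Mrps34, which encodes mS34 of the small subunit, had 21.72 CPM in Th17, 22.09 in Treg, 46.13 in Th0 and 23.03 in naive cells. It shares exon bases with Nme3 and Mapk8ip3. Of these 6, Mrpl9 and Mrpl18 were called under all 4 scalings, Mrpl1 under 3, and Mrpl30, Mrps34 and Mrps16 under 2. Mrps2 was 4.23-fold (log2 1.92, interval 1.67 to 2.51) and Mrpl38 2.34-fold higher in Th17 than in Th0 cells. Mrpl53, with 7 reads in Th0 cells, was also called higher, with an interval from 0.67 to 3.26 on the log2 scale. Below the threshold on the higher side stood Mrps10 (0.94), Mrpl17 (0.82) and Mrpl50 (0.68).

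Treg over Th0 cells gave similar values from the same Th0 library. In Treg cells 1 member was higher (1.3%), against 20.2% of 13138 genes tested, and 7 were lower (9.09%), against 12%. The median log2 ratio was -0.23, against 0.08 for all genes, and under library totals it was 0.10, against 0.39, with 6 members higher and 2 lower, while upper quartile scaling gave 2 and 3. Shares of all genes called were not computed under these scalings either. With a mean of at least 10 CPM required, the TMM medians were -0.22 for the members and -0.07 for all genes. Mrpl9 was 2.98-fold lower in Treg than in Th0 cells, followed by Mrpl1, Mrpl18, Mrpl30, Mrps34, Mrps31 (2.07-fold) and Mrpl32 (2.06-fold). Mrps2 was the member called higher, at 3.73-fold. Mrpl38 (0.97), Mrpl53 (0.89) and Mrpl55 (0.85) stayed below the threshold on the higher side, as did Mrps10 (0.68), Mrps18a (0.67) and Mrpl46 (0.67).

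Th17 and Treg cells were close to each other. No member was called higher in Th17, against 1.91% of 13346 genes tested, and none lower, against 1.24%. The median log2 ratio was -0.02, against -0.001 for all genes. The counting interval lay above equality for 9 members, below it for 11 and included it for 57. Again no share of all genes was computed for these interval counts. The ratio furthest from equality was that of Mrps23, a mitochondria-specific small-subunit gene, with 36.65 CPM in Th17, 21.82 in Treg, 29.88 in Th0 and 30.95 in naive cells. It was 1.68-fold higher in Th17 than in Treg cells (log2 0.72, interval 0.52 to 0.98), and the Treg library was the low one. Mrpl17 followed with 33.99, 23.45, 18.77 and 19.68 CPM, and there the Th17 library was the high one. In the other direction Mrps21, which encodes bS21m, had 17.15 CPM in Th17, 26.33 in Treg, 26.1 in Th0 and 24.01 in naive cells, and its log2 ratio was -0.59 (interval -0.88 to -0.36). Here the Th17 library alone was low. Mrps24 (-0.45), Mrpl55 (-0.43) and Mrpl2 (-0.39) were next on that side, and Mrps36 (0.44), Mrps18c (0.35) and Mrpl33 (0.33) on the other.

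The other genes of mitochondrial translation were read beside the members. In Th0 over naive cells the 7 constituents of the mitochondrial ribosome with other symbols had a median log2 ratio of 0.86, and Chchd1 was called higher, with 25.22 CPM in Th17, 29.49 in Treg, 40.64 in Th0 and 18.13 in naive cells. Ptcd3, which encodes mS39, was called lower in Th17 than in Th0 cells, with 44.58 and 93.06 CPM. Each of these 2 calls was met under 2 of 4 scalings and lost under library totals and upper quartile scaling. The shares of the next lists called lower in Th0 over naive cells, from 20.0% to 26.3%, were near the 27.2% of all genes. Of 25 assembly factors, 1 was higher in Th0 than in naive cells (4.0%, against 18.5% of all genes) and 6 were lower (24.0%), with a median of -0.01 that lay between -0.26 (library totals) and 0.01 (DESeq2 size factors) under the other scalings. Among them Noa1, a GTPase of ribosome assembly, had 16.38 CPM in Th17, 13.89 in Treg, 6.983 in Th0 and 25.89 in naive cells. The 15 translation factors and mRNA-binding proteins had 2 higher and 3 lower (20.0%), and the RNA-stabilizing partners Slirp and Lrpprc were on opposite sides, with 30.22 and 22.44 CPM in Th0 against 7.758 and 72.76 CPM in naive cells. Of 20 genes of mitochondrial tRNA charging, 3 met the rule as higher in Th0 and 5 as lower against naive cells (median -0.41), and Ears2, the glutamyl-tRNA synthetase gene, had 1.603 CPM in Th0 against 25.56 in naive cells. Of 19 genes of mitochondrial transcription and RNA processing, 4 were higher and 5 lower (26.3%), and 1 and 5 under library totals.

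Most of the mRNAs that these ribosomes translate were lower in Th0 than in naive cells, but on the TMM scale their sums in these libraries were close. Of the 13 mitochondrial mRNAs, 1 was called higher in Th0 over naive cells (7.69%, against 18.5% of all genes). Lower were 9 (69.2%, against 27.2%), with a median log2 ratio of -1.92. They summed to 33060 CPM in Th17, 34170 in Treg, 45000 in Th0 and 45800 in naive cells, and mt-Co1 made up most of the Th0 sum. The lowest ratio was that of mt-Nd4l, with 336.9 CPM in Th17, 326.5 in Treg, 32.28 in Th0 and 767.5 in naive cells, and the one called higher was mt-Co1, with 34660 CPM in Th0 against 16520 in naive cells. Library totals gave 0 higher and 11 lower. In Th17 over Th0 cells 8 of 13 were higher (61.5%, against 20.1% of all genes) and 1 lower (7.69%, against 12.4%). The nuclear genes of the respiratory chain had more calls on the higher side, with 30 of 78 called higher in Th0 over naive cells (38.5%) and 0 called lower (median 0.81). Under library totals 17 were called higher. In Th17 over Th0 cells 1 of 80 was higher (1.25%) and 15 lower (18.8%), and 1 and 5 under library totals. Among mitochondrial import genes and chaperones, 8 of 30 were called higher in Th0 over naive cells (26.7%) and 2 lower (6.67%), with a median of -0.02. Under library totals 5 were higher and 4 lower. The calls on the higher side were led by the chaperonin gene Hspe1 with 757.3 CPM in Th0 against 116.9 in naive cells.

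The ribosomal proteins of the cytosol had the larger differences. In Th0 over naive cells 66 of 79 cytosolic ribosomal protein genes were called higher (83.5%, against 18.5% of all genes), with a median log2 ratio of 1.65. Only 1 was called lower (1.27%, against 27.2%). In Th17 over Th0 cells 1 was higher and 63 lower (79.7%, against 12.4%, and 34 genes under library totals), with a median of -1.24. They summed to 39520 CPM in Th17, 39080 in Treg, 97110 in Th0 and 29340 in naive cells. By calls, in contrast, 2 of 30 genes of cytosolic ribosome biogenesis were higher in Th0 over naive cells (6.67%) and 17 lower (56.7%, median -1.10). In Th17 over Th0 cells 17 of them were called higher (56.7%, against 20.1% of all genes) and 0 lower. Their sums did not follow these calls, at 4303 CPM in Th17, 3195 in Treg, 4152 in Th0 and 2866 in naive cells. Of 10 cell cycle genes, 7 were called higher (70.0%) and 0 lower in Th0 over naive cells. The other cultures were similar, with 6 higher in Th17 over naive cells (60.0%, against 15.5% of all genes) and 0 lower. Treg over naive cells had 7 higher (70.0%, against 14.9% of all genes) and 0 lower. The ratio of Th0 over naive cells was lower for transcripts of higher GC content, with a median over all genes of 0.17 below 46% GC and -0.31 from 54% GC, and across genes Spearman's rho was -0.099 over all genes and -0.16 over the 77 members. With transcript length rho was -0.082 over all genes and 0.014 over the members. These values are a description of 2 libraries, and their part in the members' ratios was not tested.

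**Figure D4:**
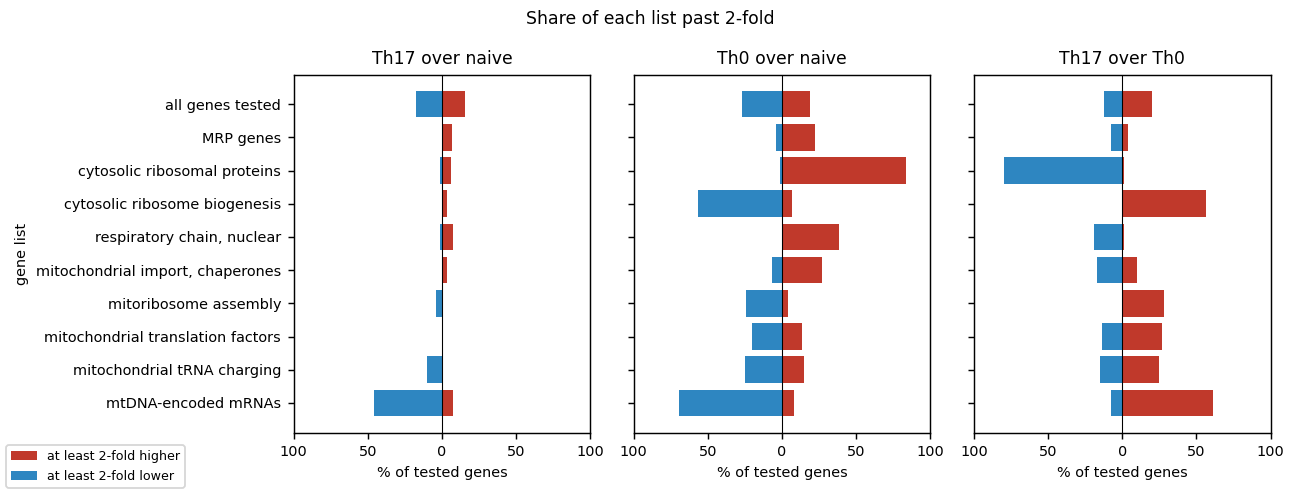
Percent of the tested genes of each list that were at least 2-fold higher (red, right) or lower (blue, left) in 3 comparisons, Th17 over naive, Th0 over naive and Th17 over Th0; the top row shows all genes tested. For Th0 over naive cells 66 of 79 cytosolic ribosomal protein genes are higher, against 17 of 77 mitochondrial ones (row MRP genes).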

How the data were processed

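RNA-seq of 4 libraries was used, 1 per group, with groups taken from the cell type in the labels. Per the labels' protocols, RNA was extracted with TRIzol and sequenced on an Illumina HiSeq platform, and the submitters' processing notes name Bowtie2, RSEM, GRCm38.p6 and mm10. Neither the annotation nor the strandedness is stated, so reads in overlaps of opposite strands cannot be assigned to 1 gene. Per the file headers, counts (whole numbers per gene, rounded if RSEM estimated them) and FPKM values were deposited by the authors. No value column was left unused (0) and 0 rows lacked a gene name.

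Counts were scaled with TMM (edgeR 4.0.16, R 4.3.3). A gene entered a comparison when either library held 10 or more of its counts. Log2 ratios were computed after adding 1 CPM, which shrinks the ratios of weakly expressed genes. A gene was called at 2-fold or more on that scale, while printed folds carry no pseudocount. Intervals of ratios are 95% exact conditional (Clopper-Pearson) intervals, and those of levels exact Poisson intervals. Both cover counting error only, since reads are not independent molecules. One count was worth 0.07621 CPM in Th17, 0.09017 in Treg, 0.1145 in Th0 and 0.08167 in naive cells. With 1 library per group no p-value was computed.

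The members, gene lists and marker lists were chosen with earlier results of these data known. Named members were, in each of 6 comparisons, the 6 highest and 6 lowest ratios and all past 2-fold, the 6 highest and 6 lowest mean FPKM, any with under 10 counts, the Mrps18 paralogs, Mrps30 and Mrps36, and of each other list up to 3 genes with the largest ratios in Th0 over naive and Th17 over Th0; the factors of the searched motifs, the divergent pairs and their members lay outside this rule where named. Near-identical copies were transcripts aligned at 95% identity or more over at least 300 nt (minimap2 2.31-r1302), from genes that do not overlap the member. Alternatives used library totals, upper quartile scaling, size factors of DESeq2 1.42.0, other pseudocounts and filters, the deposited FPKM and subsets of members. Further software was matplotlib 3.10.9, scipy 1.17.1, pandas 2.3.3, numpy 2.4.6 and Python 3.11.15. The mitochondrial rRNAs were not analysed here. One marker list fixed for this work is not reported here.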

Additional observations from a re-analysis of the deposited data

How the results depend on the processing

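Of 228 recomputed counts and medians, 201 stayed within 1.5 times the count, or within the counting error of the median, and 27 moved. Shares of all genes past 2-fold were computed only on the TMM scale with a pseudocount of 1 CPM. Counts under other scalings or pseudocounts therefore stand without such a share. No called value changed to the opposite direction, but the median changed sign in Th17 and Treg over Th0 under library totals and FPKM. Scaling to library totals gave a median of 0.18 for Th0 over naive cells, 0.058 for Th17 over Th0 (5 members higher, 2 lower) and 0.10 for Treg over Th0 (6 higher, 2 lower). The deposited FPKM gave medians of 0.17, 0.050 and 0.095 in the same comparisons, with 2 members lower in Th17 over Th0, and 2 higher and 1 lower in Treg over Th0. Upper quartile scaling gave 3 lower in Th17 over Th0, and 2 higher and 3 lower in Treg over Th0. DESeq2 size factors gave 2 higher in Treg over naive cells. A pseudocount of 5 CPM gave 3 higher in Th17 over naive, 2 higher in Treg over naive, 1 higher in Th17 over Th0 and 4 lower in Treg over Th0, and one of 0.25 CPM gave 3 higher in Treg over Th0. Without members that have near-identical copies, 2 were higher in Treg over naive. Without members sharing exon bases with another gene, which was tried once the data had been seen, as was the mean of 10 CPM, 3 were higher in Th17 over naive, 10 in Th0 over naive, and 3 and 4 were lower in Th17 and Treg over Th0. These last counts fall in part because fewer members enter; the cause of the other differences was not tested. No paired analysis was possible because each group had 1 library, and no library could be left out. Depth limits Mrpl53, with 7 reads in Th0 cells.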
